A study of Mus musculus with 8 samples.

Results

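The genes described here encode the subunits of the oxidative phosphorylation machinery of mitochondria, grouped by respiratory complex, in neutrophils of the inflamed spinal cord. They were chosen by symbol: the protein-coding genes whose symbols mark NADH dehydrogenase subunits (Nduf), succinate dehydrogenase subunits (Sdh), cytochrome bc1 subunits (Uqcr), the ubiquitous cytochrome c oxidase subunits (Cox) and ATP synthase subunits (Atp5), together with the protein-coding mRNAs of the mitochondrial genome. The rule found 84 of the 23369 genes in the count table, 77 of them nuclear and 7 mitochondrial. In the gene annotation the same rule took 91 genes, and those without a row in the count table could not be compared. Among these were 6 mitochondrial mRNAs (mt-Nd3, mt-Nd4l, mt-Co2, mt-Co3, mt-Atp6 and mt-Atp8). All 84 genes in the count table passed the filter on low counts, so the filter removed none from the comparison.

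Oxidative phosphorylation passes electrons from NADH (through complex I) and from succinate (through complex II) to ubiquinone, then through complex III and cytochrome c to complex IV, which reduces oxygen. Complexes I, III and IV pump protons across the inner mitochondrial membrane, and complex V, the ATP synthase, uses the returning protons to make ATP. Complexes I, III, IV and V are built from nuclear and mitochondrial gene products together, while all subunits of complex II are nuclear. Mature neutrophils hold few mitochondria and make most of their ATP by glycolysis, and neutrophil precursors rely more on respiration.

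Neutrophils (CD45+CD11b+Ly6G+) had been sorted out of digested spinal cord. The mice were C57BL/6N animals in which experimental autoimmune encephalomyelitis (EAE), a model of multiple sclerosis, had been induced. The 4 ZT13 libraries were set against the 4 ZT1 libraries, where ZT is zeitgeber time, counted in hours from lights on. Every mouse had EAE and no untreated group was analysed here, so the comparison is between 2 times of day in diseased animals. The labels give cell numbers per mouse but no animal identities, and p-values measure the spread between these libraries only. Libraries were made from amplified full-length cDNA with a kit that does not mark strand. Total counts per library lay between 46152067 and 67873023.

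Most subunit mRNAs had higher estimates at ZT13 than at ZT1, by about 1.3-fold, but none passed the adjusted test. No member had an adjusted p under 0.05 in edgeR's quasi-likelihood test, beside 0.0% of the 12610 genes tested, and the smallest adjusted p over all genes was 0.246. The log2 fold change of ZT13 over ZT1 was above 0 for 75 of 84 members (89.3%), beside 47.7% of all genes tested. The median log2 fold change was 0.38 over the members and -0.02 over all genes tested. Unadjusted p was under 0.05 with a higher level at ZT13 for 37 members (44.0%), beside 4.35% of all genes, and with a lower level for 0 members, beside 4.85% of all genes. Every ZT13 library lay above every ZT1 library for 8 members, beside 2.66% of all genes. Those 8 were mt-Nd2, mt-Nd6, Ndufv3, Ndufa10, Ndufb4, Cox7c, Atp5mpl and Atp5g3. DESeq2 called 1 member, mt-Nd2, with an adjusted p of 0.0395, beside 0.341% of all genes called higher at ZT13 and 0.936% called in either direction. These shares depended on single libraries. Members at an unadjusted p under 0.05 and higher at ZT13 numbered 59 without ZT1 replicate 3 (70.2%, beside 6.18% of all genes in that fit) and 18 without ZT13 replicate 3 (21.4%, beside 3.88%). They numbered 13 (15.5%) without ZT13 replicate 4, beside 3.05% of all genes, without ZT1 replicate 1, beside 2.25%, and without ZT1 replicate 2, beside 2.59%. Without ZT1 replicate 4 they numbered 11 (13.1%), beside 2.23%. Leaving out ZT13 replicate 1 gave 37 (44.0%), as with all libraries, and leaving out ZT13 replicate 2 gave 27 (32.1%). The share over all genes is not given for these fits. With 3 libraries in one group, groups without overlap are more frequent by construction. Members without overlap and higher at ZT13 numbered 58 without ZT1 replicate 3 (beside 7.37% of all genes), 13 without ZT13 replicate 1 (beside 4.61%) and 13 without ZT13 replicate 2 (beside 4.44%). Without ZT13 replicate 1, a further 3 members did not overlap and were lower at ZT13, beside 5.75% of all genes. In bulk RNA, a change in mRNA per cell and a change in the mix of sorted cells cannot be told apart.

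**Figure D1:**
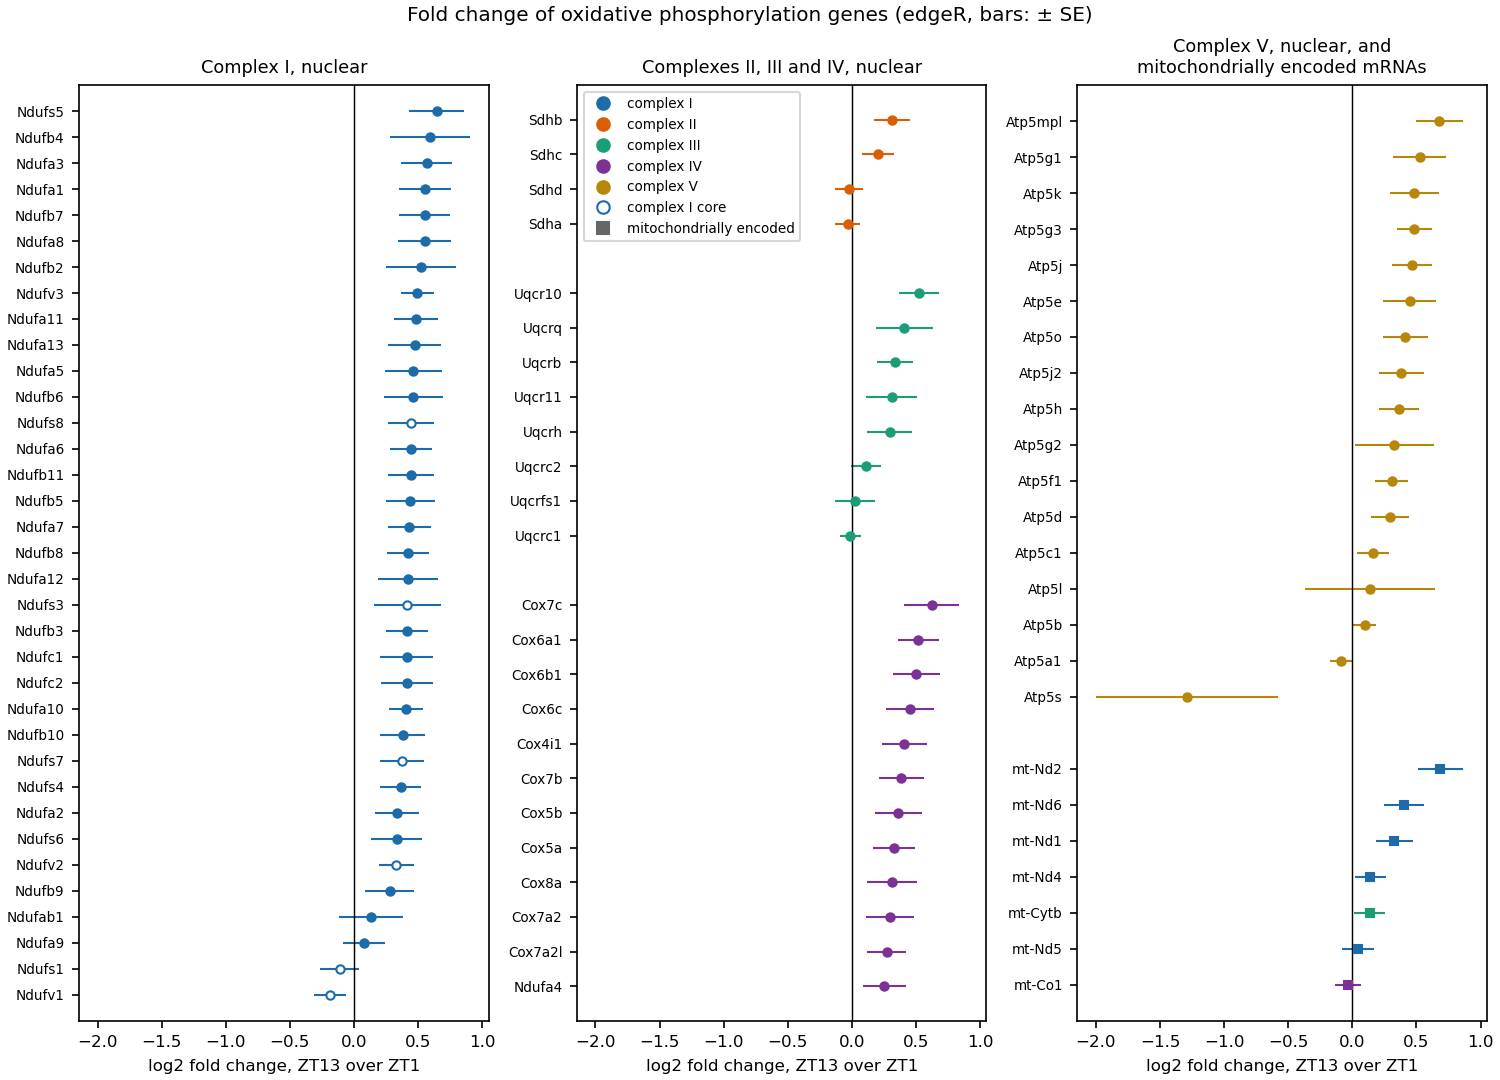
log2 fold change of ZT13 over ZT1 for the genes of the set, 1 of them not drawn, with bars of ± 1 SE from edgeR (4 libraries per group). Filled circles are nuclear genes coloured by complex, open circles the nuclear core subunits of complex I, and squares the mitochondrially encoded mRNAs. Points lie right of 0 for 75 genes, and the farthest left is Atp5s at -1.29.

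Binding motifs of the factors known to drive respiratory gene transcription stood in a larger share of the members' promoters than of all promoters. A RefSeq promoter (GRCm38.p6, 250 bases before to 50 after the start) was found for 65 of 77 nuclear members, 70 promoters in all. The motif of NRF1, nuclear respiratory factor 1, with any base at the sixth letter, stood in 25.7% of the 70 promoters, beside 4.60% of all 32851 promoters, searching both strands. Its exact palindrome, counted within that motif, stood in 7.14% against 0.971%. CCGGAAG, bound by ETS factors such as GABPA, stood in 22.9% against 8.86%. TCAAGGTCA, bound by oestrogen-related receptors, stood in 2.86% (2 promoters) against 0.423%, and the YY1 motif in 5.71% (4 promoters) against 0.633%. Both shares rest on few promoters. The motifs of clock factors were closer to the share in all promoters. The E-box CACGTG stood in 10% (7 promoters) against 7.15%, and the D-box TTATGNAA in 2.86% (2 promoters) against 3.38%. A match describes the letters and does not show that a factor binds. Cox6a1 and Atp5g3, with fold changes above the median, and Sdha, with none beyond its error, are shown to set their promoters side by side. Capitals mark the motifs, and each window holds the first 280 bases of the promoter, 5′ to 3′ on the minus strand, which is the gene's strand. Cox6a1 (chr5:115348929-115349208) holds NRF1 motifs at -162 and -117 and an ETS motif at -16 from the start. Atp5g3 (chr2:73911297-73911576) holds an E-box at -238, an oestrogen-related receptor motif at -52 and an NRF1 motif at 13. Sdha (chr13:74350211-74350490) holds NRF1 motifs at -98, -55 and -10. The relation of motifs to fold change was not tested.
Cox6a1: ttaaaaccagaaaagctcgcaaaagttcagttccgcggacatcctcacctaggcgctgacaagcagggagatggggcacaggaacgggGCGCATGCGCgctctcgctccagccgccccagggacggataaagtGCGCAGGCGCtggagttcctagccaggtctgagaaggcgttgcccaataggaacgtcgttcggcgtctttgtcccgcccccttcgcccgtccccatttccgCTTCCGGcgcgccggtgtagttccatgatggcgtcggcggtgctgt
Atp5g3: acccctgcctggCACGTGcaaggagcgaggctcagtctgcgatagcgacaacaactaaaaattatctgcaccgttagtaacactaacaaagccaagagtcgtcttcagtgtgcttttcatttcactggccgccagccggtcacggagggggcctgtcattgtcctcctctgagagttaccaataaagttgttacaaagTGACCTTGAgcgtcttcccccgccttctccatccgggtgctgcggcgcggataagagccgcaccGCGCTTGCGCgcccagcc
Sdha: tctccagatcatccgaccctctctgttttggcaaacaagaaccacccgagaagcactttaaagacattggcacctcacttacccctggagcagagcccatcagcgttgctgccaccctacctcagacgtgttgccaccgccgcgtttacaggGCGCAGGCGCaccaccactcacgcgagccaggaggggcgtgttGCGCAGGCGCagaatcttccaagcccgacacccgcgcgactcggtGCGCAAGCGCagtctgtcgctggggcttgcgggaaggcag

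Complex I, the NADH dehydrogenase, had the highest median log2 fold change of the nuclear groups, 0.42 over 36 genes. Of these, 33 lay above 0 and 18 had an unadjusted p under 0.05. All 29 accessory subunits, which surround the catalytic core, lay above 0, with a median of 0.44 and a range of 0.08 (Ndufa9) to 0.64 (Ndufs5). The 7 nuclear core subunits, which carry the flavin and the iron-sulfur clusters, had a median of 0.33, and 4 of them lay above 0. The difference between core and accessory subunits was not tested.

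Ndufv3 (chr17:31520115-31531331, GRCm38), an accessory subunit of the NADH-binding module, had the smallest p of the nuclear genes of the complex. It stood at 54.6, 59.8, 75.3 and 62.2 CPM at ZT13, against 44.6, 45.7, 49.0 and 39.8 CPM at ZT1. All ZT13 libraries lay above all ZT1 libraries, with a log2 fold change of 0.49 ± 0.13 (SE; edgeR adjusted p = 0.396). Ndufa10, an accessory subunit of the proton-pumping arm, stood at 40.8, 48.6, 52.0 and 51.1 CPM at ZT13, against 33.4, 32.8, 39.4 and 39.7 CPM at ZT1. Its groups did not overlap either, and its log2 fold change was 0.40 ± 0.13 (edgeR adjusted p = 0.473). Ndufs5, a small accessory subunit of the membrane arm, stood at 11.998, 16.2, 16.3 and 16.6 CPM at ZT13, against 8.07, 9.17, 13.2 and 8.72 CPM at ZT1. Here ZT1 replicate 3 lay above ZT13 replicate 1, and the log2 fold change was 0.64 ± 0.21 (edgeR adjusted p = 0.491). Ndufb4, an accessory subunit with a low level, had groups that did not overlap, at 4.51 ± 0.67 CPM at ZT13 and 2.99 ± 0.65 CPM at ZT1 (SD, n = 4 each), but an unadjusted p above 0.05.

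The most abundant nuclear complex I mRNA per kilobase was Ndufb7, an accessory subunit of the membrane arm, at 194 CPM per kb at ZT13 and 132 CPM per kb at ZT1. Its libraries stood at 96.7, 109, 149.7 and 129 CPM at ZT13, against 71.9, 77.3, 116 and 64.9 CPM at ZT1. The groups overlapped through ZT1 replicate 3, and the log2 fold change was 0.55 ± 0.20 (edgeR adjusted p = 0.494). When the length of all annotated exons was used in place of the principal mRNA, Ndufa1, another small accessory subunit, ranked first. Core subunits below 0 overlapped between the groups. Ndufv1, which binds NADH and FMN, stood at 54.8, 48.7, 40.8 and 41.6 CPM at ZT13, against 53.7, 52.4, 56.3 and 49.1 CPM at ZT1. Its log2 fold change was -0.19 ± 0.13 (95% interval -0.47 to 0.10). Ndufs1, the largest iron-sulfur subunit, stood at 81.9, 61.8, 50.4 and 60.3 CPM at ZT13, against 69.0, 63.0, 64.8 and 77.8 CPM at ZT1, with a log2 fold change of -0.11 ± 0.15. Neither difference exceeded 1.5 times its SE. The 4 core subunits above 0 had log2 fold changes between 0.33 (Ndufv2) and 0.44 (Ndufs8).

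Complex II, succinate dehydrogenase, which also belongs to the tricarboxylic acid cycle, showed the smallest median of the nuclear groups, 0.09 over 4 genes. Sdhb, its iron-sulfur subunit and its most abundant mRNA per kilobase (145 CPM per kb at ZT13 and 116 CPM per kb at ZT1), stood at 152, 153, 168 and 187 CPM at ZT13, against 115, 129, 170.3 and 116 CPM at ZT1. ZT1 replicate 3 lay among the ZT13 libraries and the other ZT1 libraries below them, and the log2 fold change was 0.32 ± 0.14 (edgeR adjusted p = 0.540). Sdha, the flavoprotein that oxidises succinate, stood at 215, 214, 181 and 213 CPM at ZT13, against 213, 198, 195 and 238 CPM at ZT1. Its log2 fold change was -0.03 ± 0.10 (95% interval -0.25 to 0.18). Of the membrane anchors, Sdhd had an estimate near that of Sdha and Sdhc one between those of Sdha and Sdhb. Sdhd stood at 124, 135, 110.4 and 136 CPM at ZT13, against 115, 138, 142 and 118 CPM at ZT1, with a log2 fold change of -0.02 ± 0.11. Sdhc stood at 54.4, 52.1, 46.1 and 44.6 CPM at ZT13, against 46.8, 36.8, 45.0 and 42.7 CPM at ZT1, with a log2 fold change of 0.20 ± 0.13. The groups of all 4 complex II genes overlapped. Per kilobase of all annotated exons, Sdhd ranked above Sdhb.

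In complex III, the cytochrome bc1 complex, the small subunits lay above 0 and the large core proteins near 0. The median log2 fold change was 0.30 over 8 nuclear genes, of which 7 lay above 0 and 2 had an unadjusted p under 0.05. The 5 small subunits, which surround the redox centres, all lay above 0, with a median of 0.34. Uqcr10 stood at 45.6, 40.2, 58.1 and 57.4 CPM at ZT13, against 30.02, 34.5, 40.3 and 35.5 CPM at ZT1. The groups touched only where ZT13 replicate 2 met ZT1 replicate 3, and the log2 fold change was 0.52 ± 0.16 (edgeR adjusted p = 0.449). Uqcrb stood at 49.4, 57.5, 53.8 and 66.8 CPM at ZT13, against 42.8, 39.9, 54.4 and 43.0 CPM at ZT1, with a log2 fold change of 0.34 ± 0.14. Uqcrq stood at 47.9, 52.7, 71.9 and 79.5 CPM at ZT13, against 39.1, 43.0, 67.4 and 40.2 CPM at ZT1, with a log2 fold change of 0.41 ± 0.22. For both, the overlap came from ZT1 replicate 3 alone.

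Uqcrc1, a core protein of complex III that faces the matrix, was its most abundant nuclear mRNA per kilobase, at 115 CPM per kb at ZT13 and 116 CPM per kb at ZT1. Over all annotated exons the highest nuclear gene was Uqcr10 instead. Uqcrc1 stood at 184, 200.3, 198 and 179.7 CPM at ZT13, against 199, 180.1, 201 and 188 CPM at ZT1. The libraries of both groups were mixed, and the log2 fold change was -0.01 ± 0.08 (95% interval -0.19 to 0.17), a sign that several alternative settings turned. Uqcrc2, its partner core protein, had a log2 fold change of 0.11, and Uqcrfs1, the Rieske iron-sulfur protein, of 0.02.

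For complex IV, cytochrome c oxidase, all 12 nuclear genes lay above 0, with a median log2 fold change of 0.37 and 5 unadjusted p under 0.05. Ndufa4 is counted here, since its protein sits in complex IV. Cox6a1 (chr5:115345642-115348981), a subunit at the dimer interface, was the most abundant nuclear gene of the complex per kilobase by either length, at 346 CPM per kb at ZT13 and 242 CPM per kb at ZT1. It stood at 169, 197, 200.5 and 224 CPM at ZT13, against 119.8, 129, 185 and 117 CPM at ZT1. ZT1 replicate 3 lay between ZT13 replicates 1 and 2 and the other ZT1 libraries below all of ZT13, and the log2 fold change was 0.52 ± 0.16 (edgeR adjusted p = 0.449).

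Cox7c, a small subunit that crosses the membrane once, stood at 29.5, 27.7, 36.9 and 52.6 CPM at ZT13, against 25.4, 22.2, 27.4 and 20.3 CPM at ZT1. It was the only nuclear complex IV gene whose groups did not overlap, narrowly so, with a log2 fold change of 0.62 ± 0.21 (edgeR adjusted p = 0.491). Cox6b1, which faces the intermembrane space, stood at 119, 128, 145 and 143 CPM at ZT13, against 75.0, 90.7, 135 and 76.3 CPM at ZT1. ZT1 replicate 3 again lay among the ZT13 libraries, and the log2 fold change was 0.50 ± 0.18 (edgeR adjusted p = 0.494). Cox4i1 and Cox6c were the other genes with an unadjusted p under 0.05. Cox7a2 and its relative Cox7a2l, a factor that joins complexes III and IV into supercomplexes, were less apart. Cox7a2 stood at 64.4, 63.3, 76.9 and 89.2 CPM at ZT13, against 51.9, 62.2, 79.1 and 45.9 CPM at ZT1, with a log2 fold change of 0.30 ± 0.18. Cox7a2l stood at 27.1, 28.4, 28.1 and 24.6 CPM at ZT13, against 20.01, 21.9, 27.7 and 19.9 CPM at ZT1, with a log2 fold change of 0.27 ± 0.15. The ZT1 library inside the ZT13 range was replicate 3 in both.

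Complex V, the ATP synthase, had a median log2 fold change of 0.36 over 17 nuclear genes, of which 15 lay above 0 and 8 had an unadjusted p under 0.05. Its parts differed in their medians, a difference that was not tested. The F1 head, which makes ATP, had a median of 0.16 over 5 genes, of which 0 had an unadjusted p under 0.05. The peripheral stalk, which holds the head still, had a median of 0.39 over 4 genes (Atp5f1, Atp5h, Atp5j and Atp5o), and all 4 had an unadjusted p under 0.05. The c-ring, the rotor in the membrane, had a median of 0.48 over 3 genes, and the other membrane subunits of Fo 0.43 over 4.

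In the F1 head, Atp5b, the catalytic beta subunit and the most abundant nuclear mRNA of the group per kilobase, stood at 617, 643, 629 and 766 CPM at ZT13, against 655, 601, 622 and 608 CPM at ZT1. Per kilobase that was 347 CPM at ZT13 and 324 CPM at ZT1. The groups overlapped, with a log2 fold change of 0.10 ± 0.09 (95% interval -0.10 to 0.29). Atp5a1, the alpha subunit, stood at 326, 361, 339.7 and 386 CPM at ZT13, against 397, 356, 356 and 395 CPM at ZT1, and its log2 fold change was -0.09 ± 0.08. In the stalk, Atp5j, coupling factor 6, stood at 114, 144, 157 and 168 CPM at ZT13, against 91.2, 101, 134 and 95.8 CPM at ZT1. ZT1 replicate 3 lay above ZT13 replicate 1, and the log2 fold change was 0.47 ± 0.16 (edgeR adjusted p = 0.491). Among the Fo membrane subunits, Atp5mpl (chr12:111961375-111966977), a small proteolipid bound to Fo, stood at 32.3, 32.6, 39.5 and 45.7 CPM at ZT13, against 20.7, 24.3, 29.7 and 19.0 CPM at ZT1. Its groups did not overlap, and its log2 fold change of 0.68 ± 0.18 (edgeR adjusted p = 0.403) was the highest of the nuclear genes.

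Atp5g1, Atp5g2 and Atp5g3 encode the same mature c-subunit behind different import sequences, and Atp5g3 supplied most of their mRNA. Per kilobase, Atp5g3 stood at 137 CPM at ZT13 and 97.9 CPM at ZT1, Atp5g1 at 8.67 CPM at ZT13 and 6.03 CPM at ZT1, and Atp5g2 at 7.13 CPM at ZT13 and 5.68 CPM at ZT1. The value of Atp5g1 rests on a length of 2675.5 bases that averages transcripts of different lengths, so it may be too low. Atp5g3 (chr2:73908447-73911326) stood at 97.8, 101, 95.6 and 98.7 CPM at ZT13, against 66.3, 56.8, 89.9 and 68.4 CPM at ZT1. All ZT13 libraries were within a narrow band above all ZT1 libraries, with a log2 fold change of 0.48 ± 0.14 (edgeR adjusted p = 0.429). Atp5g1 stood at 20.5, 24.7, 20.1 and 27.6 CPM at ZT13, against 18.5, 13.5, 20.2 and 12.3 CPM at ZT1, with a log2 fold change of 0.53 ± 0.21. Atp5g2 stood at 3.55, 4.41, 5.02 and 3.73 CPM at ZT13, against 3.35, 2.75, 4.33 and 2.88 CPM at ZT1, with a log2 fold change of 0.33 ± 0.31. All 3 paralogs lay above 0, and both minor ones overlapped between the groups. Atp5s, coupling factor B, which is not counted among the stable subunits, was the rarest gene of the set. It stood at 1.02, 0.783, 0.804 and 0.247 CPM at ZT13, against 3.39, 1.89, 0.906 and 0.814 CPM at ZT1, with a log2 fold change of -1.29 ± 0.71 (95% interval -2.88 to 0.30). ZT13 replicate 1 lay above ZT1 replicates 3 and 4, so these groups overlapped too.

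The mitochondrially encoded mRNAs differed among themselves. Their median log2 fold change was 0.14, with 6 of 7 above 0 and 3 unadjusted p under 0.05, all 3 of them complex I subunits. Together they held 0.0915%, 0.0875%, 0.0778% and 0.0839% of counts at ZT13, against 0.102%, 0.0853%, 0.0740% and 0.0744% at ZT1, so the groups overlapped. Mitochondrial mRNAs are cut out of long transcripts of the mitochondrial genome, mt-Nd6 from the opposite strand to the rest. mt-Nd2 (chrM:3914-4951), a membrane subunit of the proton pump, stood at 23.4, 24.5, 27.3 and 27.4 CPM at ZT13, against 18.3, 14.1, 18.8 and 12.5 CPM at ZT1. Its groups did not overlap, and its log2 fold change of 0.69 ± 0.17 (edgeR adjusted p = 0.387; DESeq2 adjusted p = 0.0395) was the highest of all 84 genes. mt-Nd6 (chrM:13552-14070) stood at 17.8, 20.3, 19.3 and 23.4 CPM at ZT13, against 17.5, 14.9, 14.6 and 14.01 CPM at ZT1. These groups did not overlap either, by a narrow margin, with a log2 fold change of 0.40 ± 0.16 (edgeR adjusted p = 0.504). mt-Nd1 (chrM:2751-3707) stood at 77.2, 91.5, 65.6 and 91.5 CPM at ZT13, against 64.7, 59.6, 77.8 and 57.8 CPM at ZT1, with a log2 fold change of 0.33 ± 0.14 and overlap through ZT1 replicate 3.

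The other mitochondrial mRNAs overlapped between the groups. mt-Nd4 stood at 51.4, 53.6, 45.7 and 46.0 CPM at ZT13, against 48.9, 46.4, 45.2 and 37.9 CPM at ZT1, with a log2 fold change of 0.14 ± 0.12. mt-Nd5, a distal proton-pumping subunit, stood at 65.2, 64.0, 64.1 and 66.6 CPM at ZT13, against 77.0, 63.9, 54.8 and 55.9 CPM at ZT1, with a log2 fold change of 0.05 ± 0.13. The ZT13 libraries were nearly level while the ZT1 libraries lay on both sides of them. mt-Cytb, the cytochrome b of complex III, stood at 230.0, 222, 199 and 224 CPM at ZT13, against 240.1, 214, 181 and 163 CPM at ZT1, with a log2 fold change of 0.13 ± 0.12. mt-Co1, the catalytic subunit of complex IV, stood at 442, 392, 409 and 391 CPM at ZT13, against 474, 448, 395 and 356 CPM at ZT1, with a log2 fold change of -0.03 ± 0.10. mt-Co1 was the most abundant of the 7 per kilobase, at 264 CPM per kb at ZT13 and 271 CPM per kb at ZT1. Near-identical copies of mitochondrial sequence lie in the nuclear genome, and mt-Nd5 and mt-Nd6 share 14 bases on opposite strands, so how reads were divided among these is uncertain. Signs of mt-Nd5 and mt-Co1 turned under some settings.

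**Figure D2:**
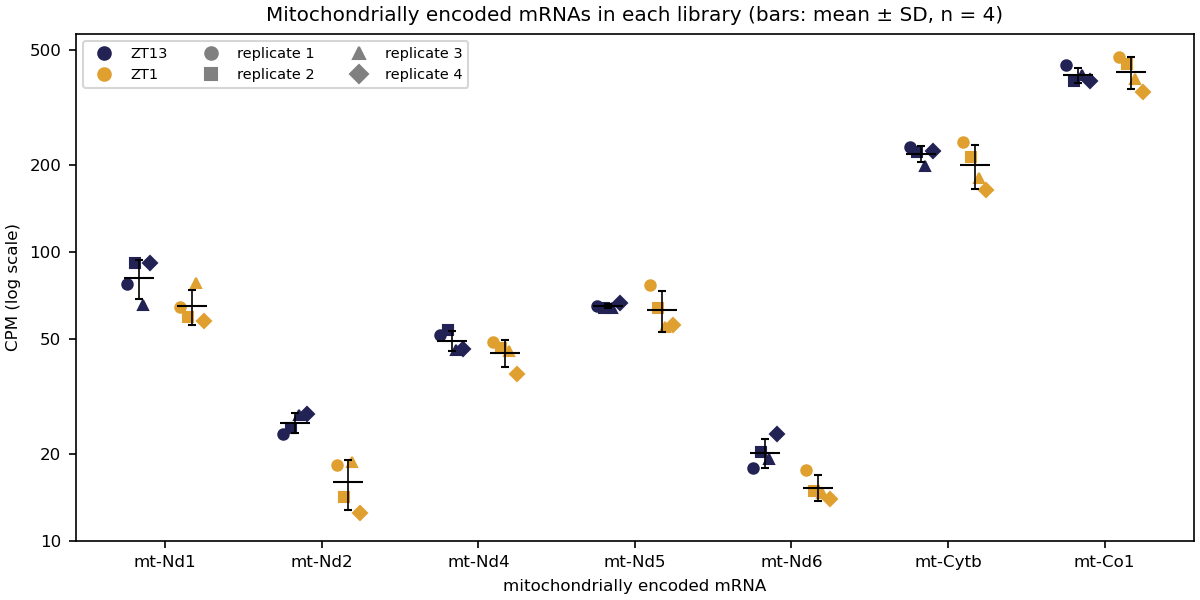
CPM on a log scale of the 7 mitochondrially encoded mRNAs in each library, ZT13 left (dark) and ZT1 right (yellow) of each pair, with marker shapes for replicate numbers and bars of mean ± SD (n = 4). The groups separate for mt-Nd2 (log2 fold change 0.69) and mt-Nd6 (0.40) and overlap for mt-Co1 (-0.03).

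ZT1 replicate 3 lay above the other ZT1 libraries in most nuclear members. It was the highest ZT1 library for 67 of 77 nuclear members. It lay above the lowest ZT13 library for 71 of 77, where the other ZT1 libraries did so for 15, 19 and 14. The same counts over all genes are not given here. Of the mitochondrial mRNAs, only mt-Nd1 and mt-Nd2 were highest at ZT1 in replicate 3. The others (mt-Nd4, mt-Nd5, mt-Nd6, mt-Cytb and mt-Co1) were highest in ZT1 replicate 1. The mean log2 CPM over the nuclear members was 5.45, 5.54, 5.57 and 5.69 in ZT13 replicates 1 to 4, against 5.11, 5.22, 5.55 and 5.04 in ZT1 replicates 1 to 4. ZT1 replicate 3 was thus level with ZT13, and its 3 partners lay below every ZT13 library. At ZT13 the spread was smaller, with replicate 4 the highest for 44 nuclear members and replicate 1 the lowest for 37. Without ZT1 replicate 3, 58 members did not overlap (7.37% of 13006 genes), 59 had an unadjusted p under 0.05 and were higher at ZT13 (6.18% of genes), and 76 lay above 0. The median log2 fold change was then 0.53, yet 0 members were called in edgeR (0.0% of genes), with a smallest adjusted p over all genes of 0.102. Examples without this library were Cox6a1 at 0.69, Cox6b1 at 0.72, Atp5g3 at 0.62 and Sdhb at 0.46 on the log2 scale, while Sdha at -0.07 and Uqcrc1 at 0.01 lay near 0.

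**Figure D3:**
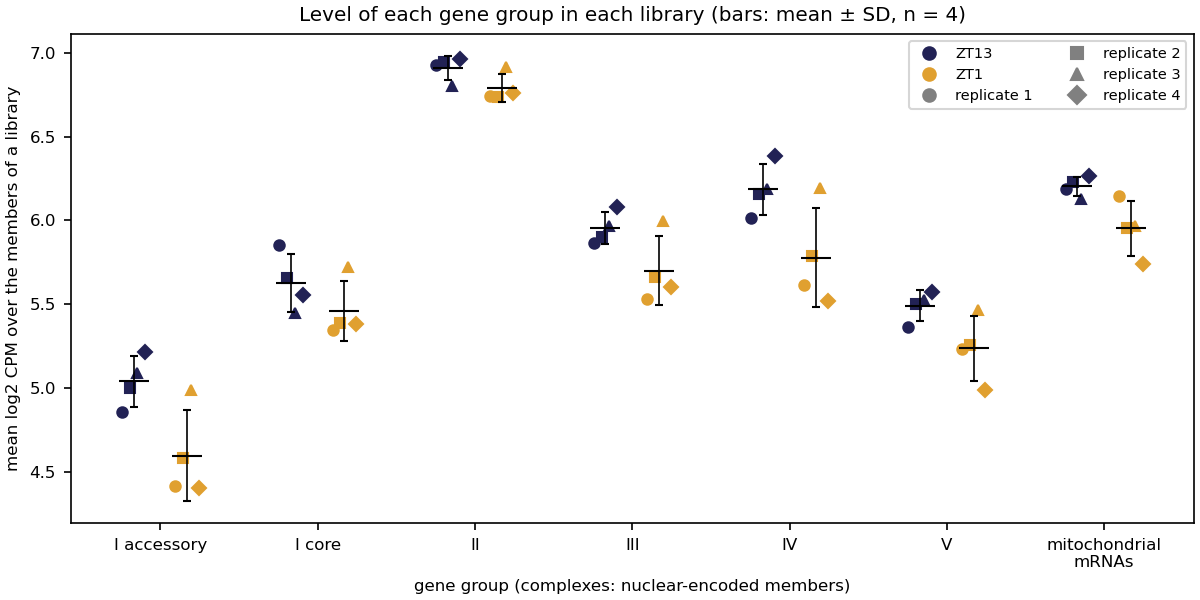
Mean log2 CPM over the members of each gene group in each library, ZT13 left (dark) and ZT1 right (yellow), with marker shapes for replicate numbers and bars of mean ± SD (n = 4). ZT1 replicate 3 (triangle) lies with the ZT13 libraries in the nuclear groups, as in the complex I accessory subunits, where the ZT13 libraries had 4.86 to 5.22 and ZT1 replicate 3 had 4.99, above 4.40 to 4.58 in the other ZT1 libraries.

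The fold changes followed mRNA length, within the group and across all genes. The principal mRNAs of the nuclear members were short, with a median of 861 bases (371 to 3171), beside 2850 bases for all 10839 tested protein-coding genes with a length. Across the 77 nuclear genes, Spearman's rho of log2 fold change with length was -0.46, and across all tested protein-coding genes it was -0.26, both from the same 8 libraries and given as descriptions over genes. Members under 600 bases had a median log2 fold change of 0.44, with 21 of 21 above 0, beside 0.40 in the 134 other protein-coding genes of that length. Between 600 and 1000 bases the median was 0.41 over 26 members, all above 0, beside 0.34 in 563 other genes. Between 1000 and 2000 bases it was 0.28, with 17 of 22 above 0, beside 0.08 in 2430 other genes. At 2000 bases or longer it was 0.17, with 5 of 8 above 0, beside -0.09 in 7628 other genes. In the classes under 1000 bases, which hold most members, the medians were close to those of other short mRNAs. Of the other genes, 84.3% under 600 bases and 84.2% between 600 and 1000 bases lay above 0, beside all members. An unadjusted p under 0.05 with a higher level at ZT13 was more frequent in the members, at 57.1% against 28.4% under 600 bases and 50% against 22.6% between 600 and 1000 bases. The median SE was also smaller in the members, at 0.19 against 0.28 under 600 bases and 0.18 against 0.24 between 600 and 1000 bases. These differences were not tested. Subunits near 0 (Sdha, Ndufs1, Ndufv1, Atp5a1 and Uqcrc1) have principal mRNA lengths over 1000 bases, and so do Ndufv3, Ndufa10 and Atp5g1, with 0.49, 0.40 and 0.53. These lengths are medians over the principal transcripts of a gene. That of Atp5g1, 2675.5 bases, averages transcripts of different lengths, so its mRNA may be shorter.

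**Figure D4:**
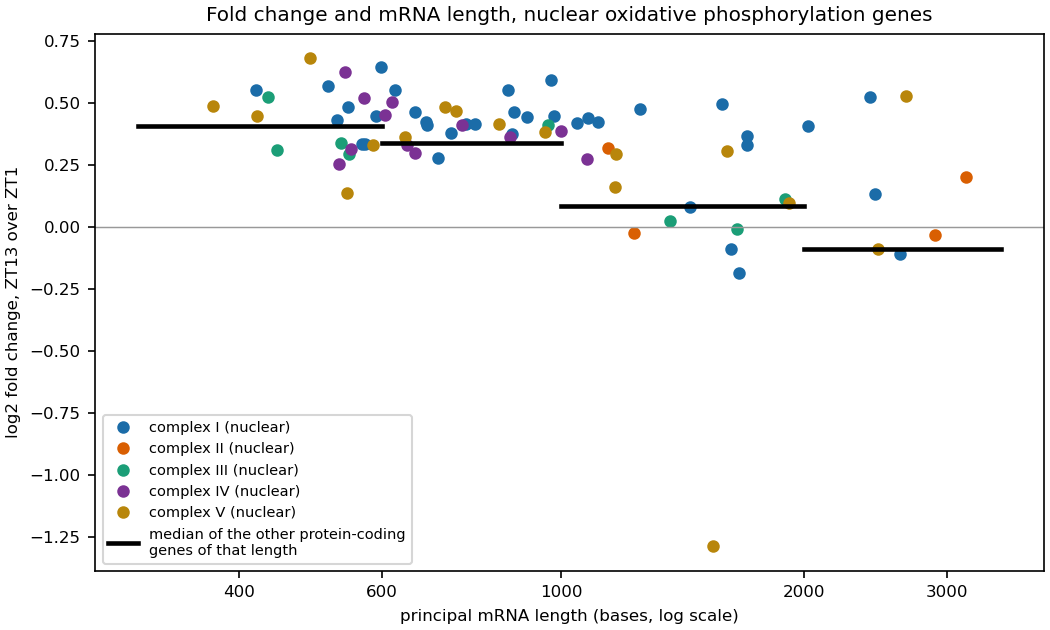
log2 fold change of ZT13 over ZT1 against principal mRNA length (bases, log scale) for the 77 nuclear genes, coloured by complex. Black lines give the median of the other protein-coding genes in each length class (drawn only across the plotted range), 0.40 under 600 bases and -0.09 at 2000 bases or longer.

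Some measures of the libraries also lay apart between the time points, though none had an adjusted p under 0.05. Genes with at least 1 count numbered 14909 ± 766 at ZT13 and 16891 ± 815 at ZT1 (SD, n = 4 each), with no overlap (exact two-sided permutation p = 0.0286, the smallest that 4 against 4 allows, and 0.0714 adjusted over the 5 library measures tested). The 10 most abundant genes took 22.7% ± 1.29 of counts at ZT13 and 19.0% ± 1.20 at ZT1 (SD, n = 4 each; exact permutation p = 0.0286, adjusted 0.0714). The 471 other protein-coding genes with under 1 kb of exons took 9.30%, 9.51%, 11.7% and 12.7% of counts at ZT13, against 6.48%, 8.03%, 9.38% and 6.47% at ZT1 (exact permutation p = 0.0571, adjusted 0.0714). ZT1 replicate 3 was again the highest ZT1 library in that share, and ZT13 replicate 4 the highest at ZT13. Detected genes were fewer at ZT13, and ZT1 replicate 3 had the most of all libraries (17701). Without ribosomal protein genes (454 genes left), the share of these short genes had the same p, but no other abundant genes were taken out. Such a share can rest on few abundant genes. S100a8, a neutrophil gene, stood at 39082.6 ± 10935.5 CPM at ZT13 and 25199 ± 5855 CPM at ZT1 (SD, n = 4 each). S100a9, another, stood at 41785 ± 6605 CPM at ZT13 and 27593 ± 6961 CPM at ZT1. How much of the difference in the share came from both was not tested. Total counts had an exact permutation p of 0.257. The part of these measures in the members' levels was not tested.

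As a list, the defining markers of the labelled cell type were abundant. Ly6g, the gene of the sorting marker, stood at 485 ± 24.2 CPM at ZT13 and 369 ± 108 CPM at ZT1 (SD, n = 4 each). Neutrophil genes (10) summed to 90791 to 128654 CPM at ZT13 and 63898 to 95890 CPM at ZT1, mostly S100a8 and S100a9. The sums therefore follow these genes more than the whole list. In direction, 8 of the 10 lay above 0 and 2 below, with an unadjusted p under 0.05 for 3 higher and 1 lower at ZT13. Immature neutrophil genes (13), the precursors' granule and cycle genes, ranged from 78622 to 107659 CPM at ZT13 and from 77680 to 88022 CPM at ZT1. Of them, 6 lay above 0 and 7 below, with an unadjusted p under 0.05 for 2 higher (Ngp, a granule protein, and Hmgb2, a chromatin protein) and 1 lower at ZT13 (Top2a, a topoisomerase of dividing cells). Ngp had a log2 fold change of 0.34 ± 0.12, Hmgb2 of 0.28 ± 0.09 and Top2a of -0.48 ± 0.19. Microglia and macrophage genes (13 of 14 tested) ranged from 2174 to 2949 CPM at ZT13 and from 2120 to 2838 CPM at ZT1, with 8 above 0 and 5 below. Ly6c2, which Ly6C-high monocytes express, stood higher without overlap, at 1166 ± 90.6 CPM at ZT13 and 835 ± 160 CPM at ZT1 (SD, n = 4 each; DESeq2 adjusted p = 0.0395, edgeR adjusted p = 0.403). Mrc1, a macrophage receptor near the limit of detection, stood lower without overlap, at 0.034 ± 0.067 CPM at ZT13 and 1.17 ± 0.744 CPM at ZT1 (DESeq2 adjusted p = 0.0378, edgeR adjusted p = 0.433). Ccr2, a monocyte chemokine receptor, stood at 382 ± 91.2 CPM at ZT13 and 506 ± 50.04 CPM at ZT1, with overlap. Csf1r, of the same list, stood at 463 ± 86.5 CPM at ZT13 and 554 ± 78.5 CPM at ZT1, also with overlap. Levels of Ly6c2, Ccr2 and Csf1r were thus near that of Ly6g or higher, while most of the list stood lower. How much RNA came from such cells was not tested. Sums of the other lists were small. They ranged from 8.85 to 22.2 CPM at ZT13 and 9.11 to 19.9 CPM at ZT1 for 9 T and NK cell genes (Prf1 at 0 in all ZT13 libraries), and from 2.77 to 5.28 CPM at ZT13 and 1.64 to 2.28 CPM at ZT1 for 3 B and plasma cell genes. Dendritic cell genes (5, with Xcr1 at 0 at ZT13) summed to 4.42 to 22.0 CPM at ZT13 and 7.62 to 18.5 CPM at ZT1. Erythroid genes (6) summed to 2.52 to 30.1 CPM at ZT13 and 0.422 to 3.81 CPM at ZT1. Endothelial genes (5) summed to 8.41 to 20.4 CPM at ZT13 and 9.67 to 21.6 CPM at ZT1, and neural genes (4, with Snap25 at 0 at ZT13) to 105 to 190 CPM at ZT13 and 104 to 154 CPM at ZT1, nearly all of it Mbp. The B and plasma cell sums did not overlap between the groups, and erythroid genes were highest in ZT13 replicate 4 and, at ZT1, in replicate 3. Their part in the members' levels was not tested.

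By their medians, genes that build or feed the respiratory chain without being part of the set lay nearer to all genes. These lists were not matched to the members for mRNA length. In none of the lists below was a gene called. Of 47 tested assembly factors, which insert cofactors and join subunits, 31 lay above 0, with a median log2 fold change of 0.17, and unadjusted p was under 0.05 for 2 higher and 1 lower at ZT13. The smallest p was that of Sco1, a copper carrier for complex IV, at 3.30 ± 0.83 CPM at ZT13 and 6.73 ± 2.41 CPM at ZT1 (SD, n = 4 each), with a log2 fold change of -1.03 ± 0.34 (SE; edgeR adjusted p = 0.491). Of 7 tested subunits and accessory proteins whose names the rule did not take, 5 lay above 0, with a median of 0.11. The most abundant, Cyc1, the cytochrome c1 of complex III, stood at 75.4 ± 4.90 CPM at ZT13 and 69.7 ± 11.2 CPM at ZT1, and the one with the smallest p, Higd2a, an assembly protein of complex IV, at 57.1 ± 4.23 CPM at ZT13 and 42.7 ± 10.1 CPM at ZT1 (SD, n = 4 each). Electron carrier genes make ubiquinone, carry electrons to it or, for cytochrome c, carry them from complex III to complex IV. Of 17 such genes, 9 lay above 0, with a median of 0.09. The groups of 2 did not overlap and were higher at ZT13, beside 2.66% of all genes. Etfa, the electron-transfer flavoprotein that hands on electrons from fatty acid oxidation, stood at 55.3 ± 6.19 CPM at ZT13 and 40.7 ± 3.70 CPM at ZT1 (SD, n = 4 each; log2 fold change 0.44 ± 0.13), without overlap.

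The 17 genes of the tricarboxylic acid cycle, which supplies NADH and succinate, had a median log2 fold change of -0.01, with 7 above 0. Mdh2, the most abundant, stood at 369 ± 27.4 CPM at ZT13 and 329 ± 31.7 CPM at ZT1, and Idh3g, with the smallest p, at 85.2 ± 6.17 CPM at ZT13 and 68.3 ± 4.41 CPM at ZT1 (SD, n = 4 each; log2 fold change 0.32 ± 0.10). Of 7 carriers that move ATP, phosphate or protons across mitochondrial membranes, 4 lay above 0, with a median of 0.09. An unadjusted p under 0.05 with a higher level at ZT13 was found for 2 of the 7, beside 4.35% of all genes. The same number did not overlap and were higher at ZT13, beside 2.66% of all genes. Slc25a4, an ADP/ATP exchanger, stood at 27.3, 28.5, 29.6 and 30.8 CPM at ZT13, against 22.7, 20.02, 22.2 and 18.8 CPM at ZT1. Ucp2, an inner membrane carrier abundant in immune cells, stood at 1505, 1492, 1237 and 1257 CPM at ZT13, against 987, 1089, 1187 and 1059 CPM at ZT1. Neither gene overlapped between the groups, with log2 fold changes of 0.47 ± 0.13 and 0.35 ± 0.10 (edgeR adjusted p = 0.403 for Slc25a4 and 0.429 for Ucp2). The 12 tested genes that copy and read mitochondrial DNA had a median of -0.14, with 5 above 0 and no unadjusted p under 0.05. The nuclear regulators of respiratory genes had a median of -0.27 over 9 tested, with 3 above 0. Nrf1, whose motif is described above, stood at 55.1 ± 2.59 CPM at ZT13 and 66.5 ± 11.02 CPM at ZT1, and Gabpb1, the partner of the ETS factor GABPA, at 45.0 ± 5.65 CPM at ZT13 and 55.2 ± 4.55 CPM at ZT1 (SD, n = 4 each; log2 fold change -0.30 ± 0.13). Ppargc1a, a coactivator of these factors, was found in 1 library only.

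Some counts may not be fully assigned to their gene. Exon bases were shared with another annotated gene for 34 of 84 members, none over 50% of its exons, the most in Atp5o (47.9%), Ndufb6 (39.0%) and Ndufa13 (29.98%). Reads on shared bases cannot be told apart by strand here. Many nuclear subunit genes also have near-identical processed copies elsewhere in the genome, and how reads matching several places were counted was not stated in the sources used here, so the low levels of Atp5l, Ndufb2, Ndufb4 and Ndufab1 are uncertain.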

How the data were processed

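RNA sequencing was compared between 4 ZT13 and 4 ZT1 libraries of sorted neutrophils. The data are raw counts by gene, deposited by the authors as 1 table. Per the submitters' processing notes, FastQC, STAR 2.7.10b, featureCounts, Subread 2.0.3, DESeq2 1.46.0 and the build GRCm38 were used; their order, the annotation release, the strand setting and the treatment of multiply mapped reads were not stated in the sources used here. Per the labels' protocols, 1 ng of total RNA was amplified with SMART-Seq v4, libraries were made with Nextera XT, and single reads of 50 bases were sequenced.

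Gene names, mRNA lengths and coordinates came from GENCODE M21 (GRCm38), which matched 22231 of 23369 genes by identifier. Genes with at least 10 counts in enough libraries and 15 in all (filterByExpr) entered the robust quasi-likelihood test of edgeR 4.0.16 (R 4.3.3, TMM factors), with Benjamini-Hochberg adjustment over the 12610 genes tested and a threshold of 0.05. CPM values are counts scaled by library total and TMM factor. SE is the log2 fold change over the square root of F. Library measures were compared with exact two-sided permutation tests. No 2 count columns were identical. The test was tried on simulated data. Level per kilobase uses the median length of principal transcripts.

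The members, the gene lists and the naming rule were chosen with earlier results of these data known. Named with values were all mitochondrial mRNAs, all complex II genes, both paralog sets, and in each other complex the most abundant gene per kilobase, the 3 with the smallest p and those with a sign opposite to the median. Members named beyond that rule were chosen after their values were seen. Alternatives were other normalizations and filters, DESeq2 1.42.0, limma 3.58.1, a replicate block and leaving out each library. Replicate numbers were not treated as pairs. Of the genes and markers that the rules would name, 3 are not reported here by name.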

Additional observations from a re-analysis of the deposited data

Results flagged for a closer look

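Among 132 sets of 4 libraries (each named gene, gene group or marker sum within one time point), 9 held a library whose gap to its nearest neighbour was over Dixon's 95% critical value as a share of the whole range. Chance gives about 1 in 20.

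Ndufs5, the small complex I accessory subunit, stood at 11.998 CPM in ZT13 replicate 1, below 16.2 to 16.6 CPM in the other ZT13 libraries. Sdha, the flavoprotein of complex II, stood at 181 CPM in ZT13 replicate 3, below 213 to 215 CPM in the others. The share of counts in complex II genes was likewise 0.0474% in ZT13 replicate 3, below 0.0550% to 0.0560% in the others.

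The remaining sets had a high library, ZT1 replicate 3 in all but one case. Uqcrq, the small complex III subunit, stood at 67.4 CPM there, above 39.1 to 43.0 CPM in the other ZT1 libraries. The share of counts in nuclear complex I genes was 0.155% there, above 0.121% to 0.126%. The mean log2 CPM of complex II genes was 6.91 there, above 6.74 to 6.76, and that of the nuclear complex I core subunits was 5.72, above 5.35 to 5.39. The erythroid marker sum was 3.81 CPM there, above 0.422 to 0.730 CPM, and 30.1 CPM in ZT13 replicate 4, above 2.52 to 4.45 CPM in the other ZT13 libraries.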

How the results depend on the processing

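DESeq2 called 1 member (mt-Nd2) and 118 genes in all, where edgeR and both limma-voom fits called 0 genes at an adjusted p under 0.05; edgeR had 548 genes higher and 612 lower at an unadjusted p under 0.05. Leaving out each library in turn, members at an unadjusted p under 0.05 and higher at ZT13 ranged from 11 to 59, members without overlap in either direction from 8 to 58, members above 0 from 72 to 78, and the nuclear median log2 fold change from 0.32 to 0.53. Of 610 values of the 34 named genes under alternatives, 591 kept their sign. The 19 that did not belong to genes near 0, and the cause was not tested. Uqcrc1 (-0.01) turned to 0.0087 with upper-quartile factors, 0.0079 with a minimum of 5 CPM in 4 samples, 0.0084 with voom quality weights and 0.039 with the block by library name. mt-Nd5 turned to -0.021 with library totals and to -0.014 with that block, and Sdha to 0.011 with voom quality weights. With single libraries left out, Uqcrc1 ranged from -0.043 to 0.014, mt-Nd5 from -0.017 to 0.16, Sdha from -0.071 to 0.029, Sdhd from -0.077 to 0.032 and mt-Co1 from -0.10 to 0.029. Same-numbered libraries did not deviate together (correlations of -0.04 to 0.02 by title number). The replicate block left 29 members at an unadjusted p under 0.05 and 0 called, or 49 and 0 when blocked by library name. In the library names, number 3 occurs only at ZT1 (replicate 3) and number 5 only at ZT13 (replicate 4). Blocking by name thus takes both libraries out of the comparison, so the 49 is not a check of pairing alone. Shares over all genes are not given for the block fits. The 5 CPM minimum removed the rarest genes, such as Atp5s. With 4 libraries a group, the median SE of a member's log2 fold change was 0.17, which limits the size of change that could pass.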
